A study of Mus musculus with 12 samples.

Results

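Mitochondrial ribosomal protein mRNAs were examined in mouse blastocysts cultured with or without an inhibitor of p38-MAPK. The members are the genes whose symbol is Mrpl (large subunit) or Mrps (small subunit) followed by a number and at most 1 letter from a to c, with pseudogenes left out. These were 78 of the 34245 genes in the deposited table, 49 Mrpl and 29 Mrps, on 17 chromosomes. Both parents of the embryos were F1 hybrids of C57Bl6 and CBA/W mice, and the embryos were taken from oviducts of superovulated females at the 2-cell stage and grown in KSOM with amino acids to E3.5. For the next 4, 7, or 10 h, groups of 30 received either the kinase inhibitor SB220025 at 20 µM (p38-MAPKi) or an equal volume of its solvent, DMSO (control). Every combination of time and treatment was represented by 2 separate pools as biological replicates, giving 12 libraries of poly(A) RNA, and each time point had its own controls. Whole blastocysts were pooled, so the values are averages over trophectoderm, epiblast, and primitive endoderm. Levels are in RPKM, a read count divided by transcript length and by library size, or in log2 RPKM as deposited, and the total of a library lay between 11242313 and 24457312 reads.

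Mitochondria carry their own ribosome, which translates the few proteins encoded in the mitochondrial genome, all of them core subunits of the respiratory chain and of ATP synthase. Its RNAs come from the mitochondrial genome, while all of its proteins are encoded in the nucleus, made by cytosolic ribosomes, and imported. Some of these proteins have a counterpart in bacterial ribosomes, and others exist only in mitochondria. Oocyte mitochondria are inherited by the embryo, and the blastocyst is a stage at which oxygen use and mitochondrial activity increase.

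The identity of the samples was checked first. Markers of the 3 blastocyst lineages were present in all 12 libraries: the summed level of 7 trophectoderm markers, led by Krt18, was 1970 to 2830 RPKM, that of 6 epiblast markers, led by Pou5f1, was 556 to 717 RPKM, and that of 6 primitive endoderm markers, led by Gata6, was 109 to 165 RPKM. The primitive endoderm marker Sox7 was at most 0.436 RPKM. Markers of cells that can accompany recovered embryos were near the detection limit. The summed level of 6 cumulus and granulosa markers was at most 0.936 RPKM, with Has2 and Ptx3 without a read in any library, that of 3 oviduct markers was at most 1.29 RPKM, and that of 3 blood cell markers was at most 1.06 RPKM, with Hbb-bs and Ptprc without a read.

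In control blastocysts, every member was expressed, and levels spanned a wide range. All 78 members had at least 1 RPKM in every library, so all passed the filter of at least 1 RPKM in at least 2 libraries in every comparison. The median of the mean levels over the 6 control libraries was 31.95 RPKM for the 49 Mrpl genes and 21.8 RPKM for the 29 Mrps genes. The highest level was that of Mrpl2, which encodes a protein near the peptidyl transferase center, with 117 ± 14.4 RPKM (SD, n = 6). Mrpl18 followed with 103.8 ± 10.51 RPKM, Mrpl12 with 93.9 ± 3.40 RPKM, and Mrpl43 with 83.8 ± 8.11 RPKM (SD, n = 6 each). Mrpl12 belongs to the stalk of the large subunit, to which elongation factors bind, and has also been reported to bind mitochondrial RNA polymerase. Its level varied little over the control libraries, while the ranges of Mrpl2 and Mrpl18 overlapped. At the low end were Mrps33 with 4.93 ± 0.722 RPKM, Mrpl23 with 3.76 ± 0.283 RPKM, Mrps36 with 2.49 ± 0.847 RPKM, and Mrpl48 with 2.28 ± 0.108 RPKM (SD, n = 6 each). Mrpl23 encodes a protein of the peptide exit tunnel. Mrps36 carries the name of a small subunit protein, although its product is now known as a component of the 2-oxoglutarate dehydrogenase complex. The lowest count behind any member's value in any library was 25 reads. Ranks of members and the medians of Mrpl and Mrps genes depend on the exon length used, which can exceed that of the mRNA. Over the 12 libraries, Mrpl48 had 208 to 531 reads on 8152 bases, and Mrps33 had 130 to 292 reads on 1667 bases.

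**Figure D1:**
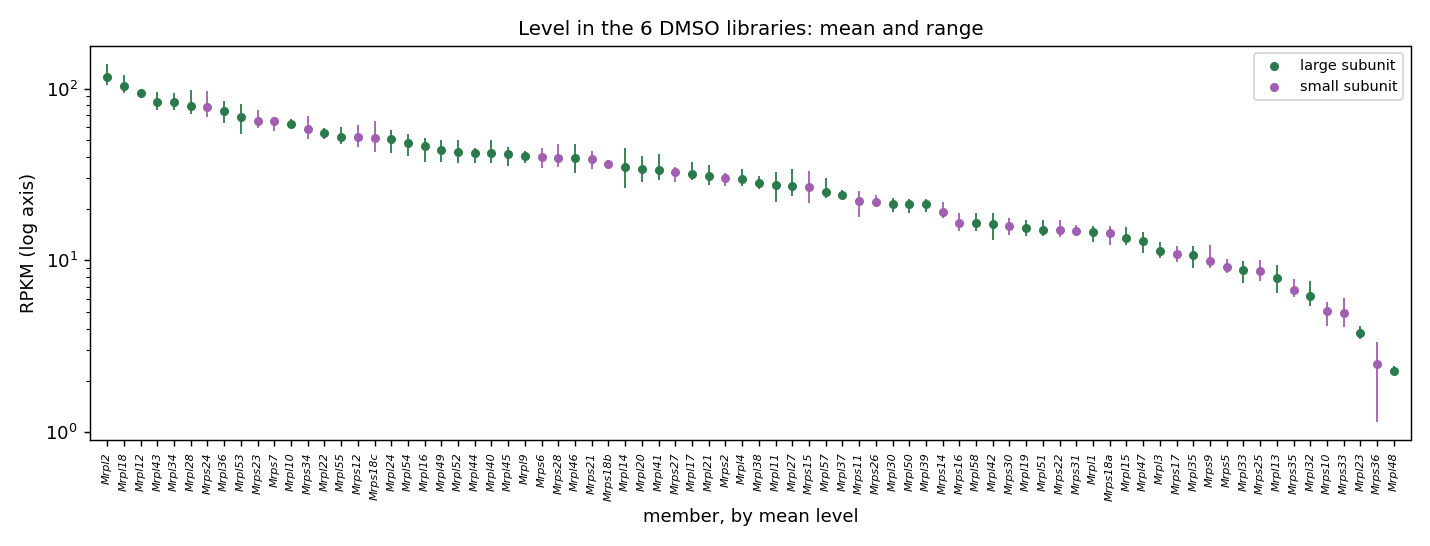
Level of each of the 78 members in control (DMSO) blastocysts. The vertical axis gives RPKM on a log axis, points are means over the 6 DMSO libraries, and lines run from the lowest to the highest of these libraries. Means run from 117 RPKM (Mrpl2) to 2.28 RPKM (Mrpl48).

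The members' summed level in control libraries did not separate the time points. Their summed level in the 2 control replicates was 2517 and 2792 RPKM at E3.5 + 4 h, 3015 and 2456 RPKM at E3.5 + 7 h, and 2665 and 2571 RPKM at E3.5 + 10 h. The replicates at E3.5 + 7 h were thus the farthest apart, with the other control libraries between them. In limma fits to the 4 libraries of each pair of time points, no member passed between control time points (Benjamini-Hochberg adjusted p of 0.05 as the threshold). Of all genes tested, 53 of 10776 (0.492%) passed from 4 to 7 h, 6 of 10873 (0.0552%) from 7 to 10 h, and 51 of 10825 (0.471%) from 4 to 10 h. At an unadjusted p under 0.05, the number of members was 0 in all 3 of these fits, beside 4.79%, 3.79%, and 15.2% of all genes. Limma's voom on reads recovered from the table also called 0 members in each, and 0.0835%, 0.0828%, and 4.42% of all genes. The members' median log2 fold change was 0.04 from 4 to 7 h, beside 0.11 for all genes, and with each library centred on its median these were −0.07 and 0.00, so the direction of the members rested on the scaling. It also rested on single libraries: without control replicate 1 at 7 h the median was −0.08 with 60 members lower, without control replicate 2 at 7 h it was 0.19 with 72 higher, without control replicate 1 at 4 h it was −0.02, and without control replicate 2 at 4 h it was 0.11. From 4 to 10 h the median was 0.00, beside 0.14 for all genes, and 39 members were lower. With median centring it was −0.14, beside 0.00 for all genes, with 67 members lower and 20 (25.6%) lower at an unadjusted p under 0.05, against 9.53% of all genes. With the length trend removed, 69 were lower and 22 (28.2%) were so at that p, against 10.3%, and with quantile normalization 64 were lower and 16 (20.5%) were, against 8.22%. No member was higher at that p in these 3 fits. Without control replicate 1 at 4 h 9 members were lower at that p (11.5%, against 5.22% of all genes) and 0 higher. Without control replicate 2 at 4 h, 10 were higher (12.8%, against 32.8%) and 1 lower (1.28%, against 1.69%). Without control replicate 1 at 10 h, 1 was higher (1.28%, against 4.49%).

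From 7 to 10 h the members' median log2 fold change was −0.02, against 0.02 for all genes, and 47 members were lower. It was −0.05 with median centring (54 lower) and −0.06 with the length trend removed (56 lower). The direction of the members turned with the control library left out at 7 h. Without replicate 2, 67 members were lower, the median log2 fold change was −0.19, and 28 (35.9%) had an unadjusted p under 0.05, all lower, against 8.08% of all genes lower. Without replicate 1, 62 were higher, the median was 0.11, and 13 had an unadjusted p under 0.05, 12 of them higher (15.4%), against 11.2% of all genes higher. Mrps36 showed the largest difference from 4 to 10 h. It had 1.15 and 3.01 RPKM in the control replicates at 4 h and 2.93 and 3.37 RPKM at 10 h, a log2 fold change of 0.76 with an adjusted p of 0.345 in limma. Its 4 h replicates had the largest SD of any member in that group (0.98 on the log2 scale), and without control replicate 2 at 4 h limma called Mrps36 from 4 to 10 h, 1 of 78 members (1.28%) against 10.9% of all genes.

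With p38-MAPKi, the summed level of the members lay above control at E3.5 + 4 h and + 7 h and below it at E3.5 + 10 h. It was 2839 and 3557 RPKM at 4 h, 3718 and 3592 RPKM at 7 h, and 2341 and 2449 RPKM at 10 h. At 4 and 7 h both p38-MAPKi libraries lay above both control libraries, and at 10 h both lay below. As a share of all reads, the members made up 0.515% and 0.564% in control and 0.580% and 0.718% in p38-MAPKi at 4 h. The corresponding shares were 0.606% and 0.504% in control and 0.730% and 0.716% in p38-MAPKi at 7 h, and 0.544% and 0.527% in control and 0.484% and 0.506% in p38-MAPKi at 10 h. No RNA standard was added, which makes every level relative to the other mRNAs of its library, and in pooled embryos fewer cells of a type and less RNA per cell cannot be told apart.

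**Figure D2:**
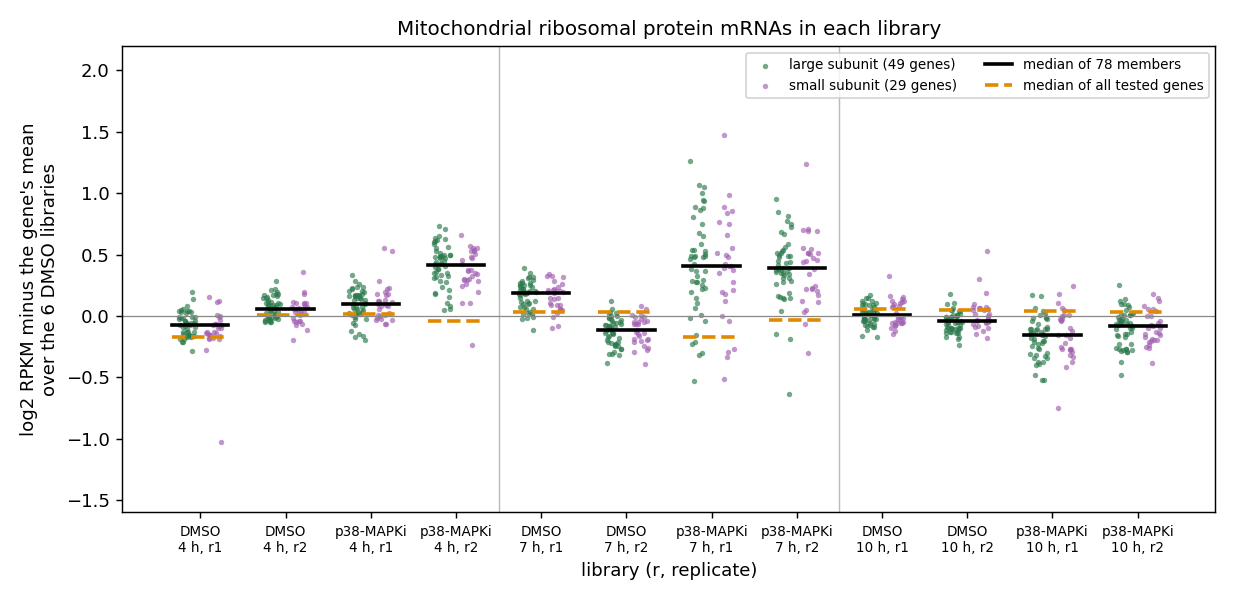
Level of the 78 members in each of the 12 libraries. The vertical axis is log2 RPKM minus the mean of the same gene over the 6 DMSO libraries, green points are large and purple points small subunit genes, black bars are the median of the members, and dashed orange bars the median of the 11342 genes tested in any p38-MAPKi comparison. The members' median is 0.41 in p38-MAPKi replicate 2 at 4 h and 0.41 and 0.39 in the p38-MAPKi libraries at 7 h, against −0.15 and −0.08 at 10 h.

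At E3.5 + 4 h, 75 of the 78 members had a higher mean with p38-MAPKi (75 with median centring, 68 with quantile normalization, and 66 with the length trend removed), and none passed the test. The median log2 fold change of the members was 0.26, against 0.07 for the 10781 genes tested. In the limma fit to the 4 libraries, 98 of these genes (0.909%) passed. Voom called 0 members and 34 of all genes (0.315%). An unadjusted p under 0.05 was found for 7 members (8.97%), all higher, against 6.39% of all genes higher and 3.03% lower, and the count moved with single libraries. The members at that p were all higher in the following fits as well, and the shares of all genes are of those higher. The count was 35 (44.9%, against 11.8% of all genes) without p38-MAPKi replicate 1, 2 (2.56%, against 5.18%) without p38-MAPKi replicate 2, 0 (against 1.6%) without control replicate 1, and 3 (3.85%, against 5.44%) without control replicate 2. With the length trend removed it was 1 (1.28%, against 5.09%). Both p38-MAPKi libraries lay above both control libraries for 43 of the 78 members, while this held for 26.8% of all genes tested. For 0 members both lay below, against 13.7% of all genes. The 3 largest log2 fold changes were those of Mrps36 (0.58), Mrps6 (0.51), and Mrps33 (0.51). Mrps36 had 1.15 and 3.01 RPKM in control and 2.29 and 3.38 RPKM with p38-MAPKi, so its groups overlapped. Mrps6 encodes a protein of the small subunit platform with a bacterial counterpart. It had 36.3 and 45.1 RPKM in control and 57.3 and 58.4 RPKM in p38-MAPKi libraries, so its groups did not overlap, and its adjusted p in limma was 0.278. The lowest were Mrpl3 (−0.04), Mrps2 (−0.03), and Mrps22 (−0.01). The size of the median rested on 1 library: it was 0.42 without p38-MAPKi replicate 1, when limma called Mrpl12 and Mrpl54 as higher, with 1.91% of all genes, and 0.10 without p38-MAPKi replicate 2.

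At E3.5 + 7 h, Mrpl52 rose, the only member to pass the test in any of the comparisons. Mrpl52 (ENSMUSG00000010406.12, chr14:54426909-54429756, + strand, GRCm38) encodes a protein of the large subunit without a bacterial counterpart. It had 50.4 and 36.7 RPKM in control and 102 and 82.3 RPKM in p38-MAPKi libraries. Both treated libraries were far above both controls, a log2 fold change of 1.09 ± 0.21 (SE) with an adjusted p of 0.0461 in limma, or 2.13-fold. At 4 h it had 43.1 and 46.9 RPKM in control and 40.3 and 69.4 RPKM with p38-MAPKi, and these overlapped. At 10 h its 41.5 and 37.6 RPKM in control stood above the 29.6 and 30.4 RPKM with p38-MAPKi (log2 fold change of −0.40, adjusted p of 0.0727 in limma). Mrpl52 overlapped no other gene of the table. Its adjusted p at 7 h was close to the threshold, and over the alternatives it ranged from 0.00205 (without p38-MAPKi replicate 2) to 0.296 (without control replicate 2). Without control replicate 2 the log2 fold change was 0.86, and with median centring and quantile normalization the adjusted p was 0.0694 and 0.0567.

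Over all members at E3.5 + 7 h, 72 of 78 had a higher mean with p38-MAPKi (75 with median centring, 71 with quantile normalization, and 69 with the length trend removed), with a median log2 fold change of 0.35, while the median of the 10940 genes tested was −0.14. Among all genes, 233 (2.13%) passed the limma test, 102 of them higher (0.932%). Of the members, 29 had an unadjusted p under 0.05. Of these, 28 were higher (35.9%), against 10.7% of all genes, and 1 was lower (1.28%), against 17.7%. The number higher was 53 (67.9%, against 18.5% of all genes) with median centring and 11 (14.1%, against 4.98%) without control replicate 2. Voom called 16 members, all higher (20.5%), and 4.93% of all genes higher and 10.9% lower. Both p38-MAPKi libraries lay above both controls for 54 members, against 23.0% of all genes tested, and below for 3 members, against 38.7%. Centring each library on its median moved the median of all genes from −0.14 to 0.05 and that of the members from 0.35 to 0.55. With quantile normalization the medians were −0.04 and 0.33. Of all libraries, p38-MAPKi replicate 1 at 7 h had the fewest reads (11242313) and the fewest genes with a read (13998, against 16321 in replicate 2). The correlation of these 2 replicates was 0.954, the lowest of any group.

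Several members with sizeable differences at E3.5 + 7 h missed the threshold. Mrps36 had 2.71 and 1.78 RPKM in control and 4.19 and 5.54 RPKM in p38-MAPKi libraries. Mrps21 had 41.1 and 33.8 RPKM in control and 108 and 55.1 RPKM with p38-MAPKi, so the treated replicates differed more from each other than in any other member at this time. Mrpl11, which encodes a protein of the GTPase-associated region, had 32.9 and 21.9 RPKM in control and 56.5 and 45.0 RPKM with p38-MAPKi. In all 3 genes the groups did not overlap. Their log2 fold changes were 1.13, 1.05, and 0.91, with adjusted p of 0.0695, 0.0671, and 0.0597 in limma. Mrpl14, whose control replicates at 7 h differed more than those of any other member (SD of 0.55 on the log2 scale), had 45.2 and 26.4 RPKM in control and 55.0 and 54.5 RPKM with p38-MAPKi, without overlap (log2 fold change of 0.66, adjusted p of 0.123 in limma). Mrps6 had 45.2 and 34.5 RPKM in control and 73.6 and 64.5 RPKM with p38-MAPKi (log2 fold change of 0.80, adjusted p of 0.0551 in limma).

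Mrps2, a small subunit protein with a bacterial counterpart, had the lowest log2 fold change of the members at 7 h. Its control values at 7 h were 32.3 and 29.0 RPKM and its p38-MAPKi values 21.1 and 24.4 RPKM, with no overlap (log2 fold change of −0.43, adjusted p of 0.156 in limma). Mrpl44, which resembles ribonuclease III, had a log2 fold change of −0.32 and Mrpl48 of −0.20. The groups overlapped for Mrpl48, with 2.37 and 2.16 RPKM in control and 2.66 and 1.46 RPKM with p38-MAPKi. At 4 and 10 h the log2 fold changes of Mrps2 were −0.03 and −0.01.

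The counts at E3.5 + 7 h depended on single libraries. The number of members called was 6 without control replicate 1, 0 without control replicate 2, 3 without p38-MAPKi replicate 1, and 15 without p38-MAPKi replicate 2. All of these members were higher. Of all 10940 genes, 301, 0, 221, and 902 were called higher in the same order, and 106, 0, 364, and 2094 lower, so that without p38-MAPKi replicate 2 the share called higher was 19.2% of the members and 8.24% of all genes. The median log2 fold change was 0.49, 0.19, 0.39, and 0.39, and the number of members with a higher mean 72, 64, 71, and 64, in the same order.

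**Figure D3:**
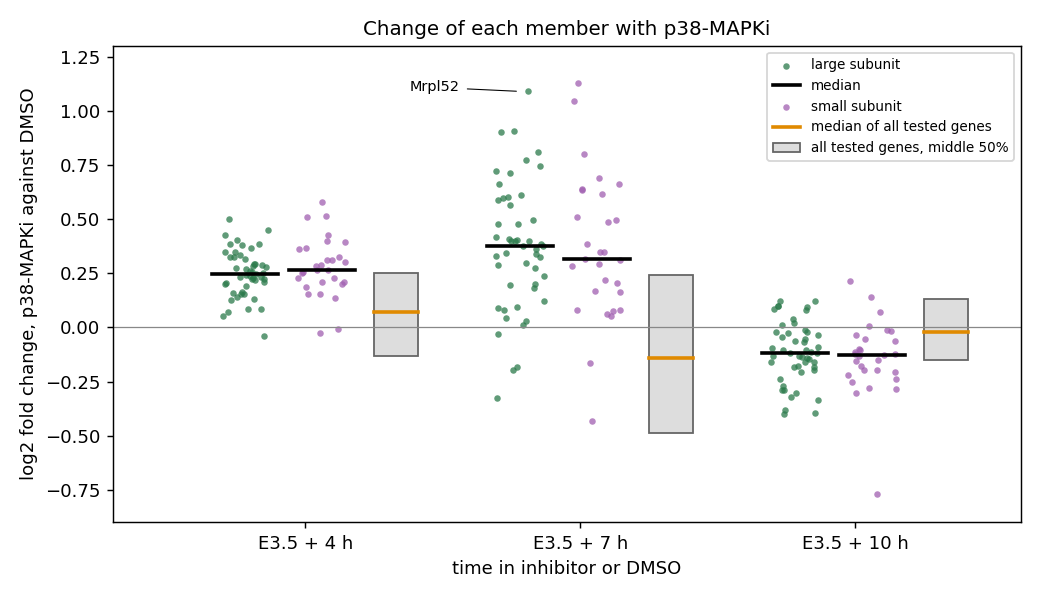
Log2 fold change of each member, p38-MAPKi against DMSO, at 4, 7, and 10 h. Green points are large and purple points small subunit genes, black bars are their medians, gray boxes hold the middle 50% of all tested genes, and orange lines are the medians of these. The members' medians lie above those of all genes at 4 and 7 h and below at 10 h, and Mrpl52 at 7 h is the only member that passed the test.

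At E3.5 + 10 h the mean was lower with p38-MAPKi in 64 of the 78 members (64 with median centring, 55 with quantile normalization, and 59 with the length trend removed). Their median log2 fold change was −0.12, against −0.02 for the 10959 genes tested, of which 88 (0.803%) passed in limma. No member passed, and voom called 1 member, Mrpl46, as lower (1.28%), with 2.76% of all genes lower. An unadjusted p under 0.05 was found for 21 members (26.9%), all of them lower, against 11.6% of all genes lower. The number lower was 14 (17.9%, against 7.84% of all genes) without control replicate 1, 12 (15.4%, against 8.57%) without p38-MAPKi replicate 1, 12 (15.4%, against 9.05%) without the trend, and 0 (against 3.16%) with a single fit of 12 libraries. Both p38-MAPKi libraries lay below both controls for 42 members, against 29.6% of all genes tested, and above for 6 members, against 22.6%. The lowest log2 fold changes were those of Mrps36 (−0.77), Mrpl52 (−0.40), and Mrpl54 (−0.40). Mrpl54 had 47.3 and 54.3 RPKM in control and 37.0 and 40.1 RPKM with p38-MAPKi, without overlap and with an adjusted p of 0.0910 in limma. Mrps36 had 2.93 and 3.37 RPKM in control and 1.39 and 2.44 RPKM with p38-MAPKi, again without overlap (adjusted p of 0.198 in limma). Its p38-MAPKi replicates at 10 h had the largest SD of any member in that group (0.57 on the log2 scale). On the high side were Mrps6 (0.21), Mrps9 (0.14), and Mrpl27 (0.12). Mrps6 had 43.2 and 35.9 RPKM in control and 47.2 and 44.0 RPKM with p38-MAPKi, and was thus above control at all 3 time points.

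Whether the response differed between time points was tested as an interaction, with the 7 h libraries used in both tests. Between 7 and 4 h, 0 of 78 members passed in limma, while 1 of 11311 genes (0.00884%) passed. Voom called 0 members and 0 of all genes. In limma, 2 members (2.56%) had an unadjusted p under 0.05, both higher at 7 h, against 1.99% of all genes higher. The median difference of log2 fold changes was 0.13, against −0.22 for all genes. It was −0.02 without p38-MAPKi replicate 1 at 4 h and −0.04 without control replicate 2 at 7 h. Without p38-MAPKi replicate 2 at 4 h it was 0.26, and without control replicate 1 at 7 h it was 0.28. With median centring it was 0.35 (69 members higher), against 0.00 for all genes. Quantile normalization gave 0.21, and removal of the length trend gave 0.20. The number of members higher at an unadjusted p under 0.05 was 9 (11.5%, against 3.77% of all genes) without p38-MAPKi replicate 2 at 4 h and 7 (8.97%, against 3.73%) without control replicate 1 at 7 h. Without each of the other 6 libraries it was between 0 and 3. Between 10 and 7 h, 0 members passed as well, beside 1 of 11400 genes (0.00877%). Here 39 members had an unadjusted p under 0.05. Of these, 38 were lower at 10 h (48.7%), against 10.4% of all genes, and 25 (32.1%, against 6.23%) were without control replicate 1 at 10 h. Voom called 16 members, all lower (20.5%), and 2.86% of all genes lower, and the median difference of log2 fold changes was −0.43, against 0.15 for all genes. Mrpl52 had the smallest adjusted p, 0.0646, with a difference of −1.49 ± 0.24 (SE). The number called between 10 and 7 h was 25 without control replicate 1 at 7 h and 28 without p38-MAPKi replicate 2 at 7 h. These were all lower in the first and 27 of 28 lower in the second, when 4.38% and 6.96% of all genes were called lower. Without each of the other 6 of these 8 libraries it was 0.

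**Figure D4:**
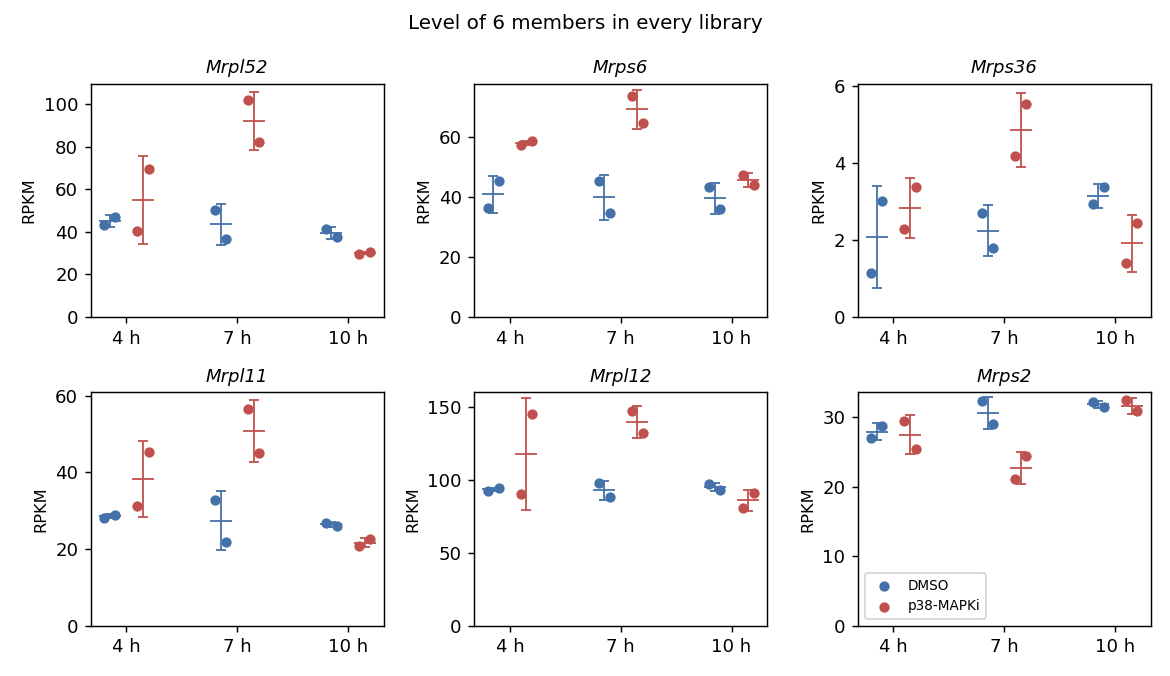
RPKM of 6 members in every library, with points for libraries and bars for the mean and SD of 2 replicates. Mrpl52 reaches 102 and 82.3 RPKM with p38-MAPKi at 7 h, above all of its other libraries, while Mrps2 is lower with p38-MAPKi at 7 h.

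Large and small subunit genes had medians close to each other. The ratio of the summed RPKM of Mrpl genes to that of Mrps genes was between 2.24 and 2.36 in all 12 libraries. The median log2 fold change was 0.25 for Mrpl and 0.26 for Mrps genes at 4 h, 0.38 and 0.32 at 7 h, and −0.12 and −0.13 at 10 h. At 7 h, 45 of 49 Mrpl and 27 of 29 Mrps genes had a higher mean. Symbols do not always name the subunit of the assembled ribosome. The products of Mrps30 and Mrps18a sit in the large subunit, and Mrps36 was left out when genes were grouped by structure. With this grouping the medians of the 51 large subunit genes were 0.25, 0.38, and −0.12 at 4, 7, and 10 h. By origin, 45 members have a bacterial counterpart and 32 do not. The medians of these groups were 0.26 and 0.25 at 4 h, 0.38 and 0.34 at 7 h, and −0.11 and −0.15 at 10 h. At 10 h, 9 (20.0%) and 11 (34.4%) of them were lower at an unadjusted p under 0.05 in limma, against 11.6% of all genes. The difference between these groups was not tested.

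The Mrps18 genes encode related proteins that occupy different places in the ribosome. At 7 h Mrps18a had 14.8 and 12.3 RPKM in control and 11.9 and 16.7 RPKM with p38-MAPKi. Mrps18b had 36.3 and 37.7 RPKM in control and 28.9 and 37.7 RPKM with p38-MAPKi. Mrps18c had 64.7 and 43.0 RPKM in control and 64.9 and 69.4 RPKM with p38-MAPKi. The groups overlapped for the first 2 of these and were separate, by a narrow margin, for Mrps18c. Mrpl58, a peptidyl-tRNA hydrolase that became a ribosomal protein and rescues stalled ribosomes, had 18.8 and 14.9 RPKM in control and 13.4 and 21.3 RPKM with p38-MAPKi, and these overlapped. Mrps12, whose bacterial counterpart is a decoding center protein, had 61.4 and 45.6 RPKM in control and 76.4 and 74.2 RPKM with p38-MAPKi. Its log2 fold change was 0.51 at 7 h, with an adjusted p of 0.128 in limma. Mrpl12, the stalk protein, had 97.7 and 88.3 RPKM in control and 148 and 132 RPKM with p38-MAPKi (log2 fold change of 0.59, adjusted p of 0.0735 in limma). Mrpl10, which anchors the stalk, had 63.0 and 58.7 RPKM in control and 60.4 and 69.2 RPKM with p38-MAPKi, so that of the pair only Mrpl12 was separate from control. Among other members of known place, the log2 fold change at 7 h was 0.60 for Mrpl2, 0.72 for Mrpl23, 0.04 for Mrpl45, −0.18 for Mrpl3, and 0.08 for Mrps30.

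The length of the genes moved with these values. Across genes, the slope of log2 level on length, in log2 units per doubling of length relative to the mean library, was 0.044 and 0.037 in control and 0.028 and −0.145 in p38-MAPKi at 4 h. It was −0.016 and 0.129 in control and −0.228 and −0.164 in p38-MAPKi at 7 h, and 0.061 and 0.087 in control and 0.101 and 0.068 in p38-MAPKi at 10 h. The slope was most negative in p38-MAPKi replicate 2 at 4 h and in both p38-MAPKi libraries at 7 h, the 3 libraries in which the members' median was highest. The members have a median exon length of 2394 bases, against 4100 bases for the other genes tested at 7 h. At this time point, the 57 members shorter than the median of the tested genes had a median log2 fold change of 0.35, and 5412 other short genes 0.09. The 21 longer members had 0.38, and 5450 other long genes −0.35. When the length trend of each library was removed, the members' median was 0.12 at 4 h, 0.31 at 7 h, and −0.09 at 10 h. The number of members with a higher mean was then 66 at 4 h and 69 at 7 h, 59 had a lower mean at 10 h, and Mrpl52 at 7 h no longer passed (log2 fold change of 0.80, adjusted p of 0.0995 in limma). Longer members by this measure need not have long mRNAs, and mRNA length was not used. The part of length in the members' differences was not tested.

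**Figure D5:**
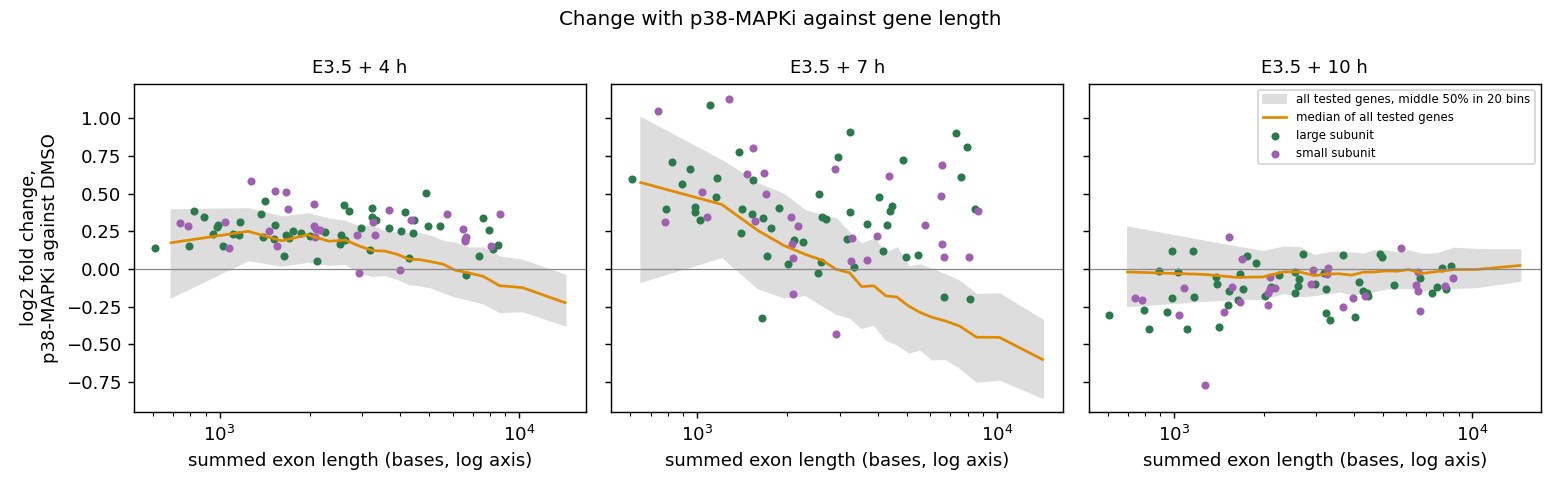
Log2 fold change, p38-MAPKi against DMSO, against the summed exon length of a gene at 4, 7, and 10 h. Points are the members, the orange line is the median and the gray band the middle 50% of all tested genes in 20 bins of length. At 7 h the line falls with length, while the 21 longer members have a median of 0.38. Length is that of all annotated exons and can exceed that of the mRNA.

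The promoters of the members were searched for the letters bound by 3 factors known to act at nuclear genes for mitochondria. Windows from 250 bases before to 50 bases after the start were taken from RefSeq (GRCm38.p6) and were found for 69 of the 78 members, 51 of them starting within 100 bases of the start in the deposited table. The NRF1 letters GCGCATGC or GCATGCGC, which overlap where both occur in a run of 10 bases, were present in 8 of 69 windows (11.6%), against 6.06% of the 8536 windows of tested genes and 3.46% of all 19155 windows. The ETS letters CCGGAAGT or ACTTCCGG, as bound by GABPA, were present in 11 (15.9%), against 9.57% and 5.1%. The YY1 letters AAGATGGC or GCCATCTT were present in 12 (17.4%), against 5.28% and 3.15%. In 8 of these 12 (66.7%) the YY1 letters stood in the sense direction after the start, as in 217 of 451 windows of tested genes (48.1%). Any of the 3 was present in 28 windows (40.6%), against 19.4% of those of tested genes and 2101 of all 19155. No test was made of these shares, and a match of letters does not show that a factor binds.

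Windows are shown for Mrpl52, the member that passed the test, for Mrps11, which shares its start region with Mrpl46, for Mrpl32, with the most NRF1 matches, and for Mrps27, with both ETS and YY1 letters. They are written 5′ to 3′ on the strand of the gene, and capitals mark the matches. The positions are chr14:54426659-54426958 (+) for Mrpl52, chr7:78782881-78783180 (+) for Mrps11, chr13:14612988-14613287 (−) for Mrpl32, and chr13:99344536-99344835 (+) for Mrps27. The capitals are ETS letters in Mrpl52, YY1 letters in Mrps11, YY1 and then NRF1 letters in Mrpl32, and ETS and then YY1 letters in Mrps27.
Mrpl52: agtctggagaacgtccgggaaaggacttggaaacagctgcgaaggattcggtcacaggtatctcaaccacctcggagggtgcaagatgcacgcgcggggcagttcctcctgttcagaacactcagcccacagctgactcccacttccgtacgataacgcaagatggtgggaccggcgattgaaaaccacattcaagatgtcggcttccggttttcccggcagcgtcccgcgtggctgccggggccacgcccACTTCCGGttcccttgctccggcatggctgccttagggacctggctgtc
Mrps11: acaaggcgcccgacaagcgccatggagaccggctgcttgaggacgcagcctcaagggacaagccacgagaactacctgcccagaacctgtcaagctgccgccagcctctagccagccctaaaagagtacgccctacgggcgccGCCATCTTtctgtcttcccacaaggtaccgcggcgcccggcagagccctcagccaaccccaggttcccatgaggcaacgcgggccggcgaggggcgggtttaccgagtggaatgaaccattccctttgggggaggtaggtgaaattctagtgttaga
Mrpl32: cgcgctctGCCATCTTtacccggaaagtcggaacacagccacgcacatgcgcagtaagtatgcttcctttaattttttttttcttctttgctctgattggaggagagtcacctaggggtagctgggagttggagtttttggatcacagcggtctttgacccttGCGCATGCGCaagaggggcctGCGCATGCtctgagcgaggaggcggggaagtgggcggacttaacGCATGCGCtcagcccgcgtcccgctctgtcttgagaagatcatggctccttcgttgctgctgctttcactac
Mrps27: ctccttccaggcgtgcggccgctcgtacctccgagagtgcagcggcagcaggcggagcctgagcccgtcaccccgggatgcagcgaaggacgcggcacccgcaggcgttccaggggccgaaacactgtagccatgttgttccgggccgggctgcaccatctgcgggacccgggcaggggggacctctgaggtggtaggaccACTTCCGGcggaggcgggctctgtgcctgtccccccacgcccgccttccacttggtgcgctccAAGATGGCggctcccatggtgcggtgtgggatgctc

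Members with and without these letters had overlapping responses. At 7 h the median log2 fold change was 0.21 for the 8 members with NRF1 letters and 0.36 for the 61 without. It was 0.36 for the 11 with ETS letters and 0.34 for the 58 without, and 0.29 for the 12 with YY1 letters and 0.36 for the 57 without. Of the 4 genes shown, Mrpl32 and Mrps27 each had a log2 fold change of 0.08 at 7 h. Mrps11 and Mrpl46 start back to back and overlap by 413 bases on opposite strands. At 7 h Mrpl46 had 47.7 and 32.2 RPKM in control and 54.6 and 48.9 RPKM with p38-MAPKi, and Mrps11 had 25.3 and 17.9 RPKM in control and 21.9 and 30.6 RPKM with p38-MAPKi. The groups were separate in Mrpl46 and overlapped in Mrps11. In all, 36 members overlapped another gene of the table, 31 of them on the opposite strand and 10 on the same strand. These overlaps are of whole gene spans, introns included. On the same strand, Mrps6 overlapped Slc5a3 by 29152 bases and Mrpl33 overlapped Gm43809 by 67447 bases. Whether strand was used in counting is not given in the sources used here, and without it reads of partners on opposite strands cannot be told apart. Strand does not separate reads of partners on the same strand.

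Of 5 genes for mitochondrial ribosomal proteins without an Mrp symbol, Aurkaip1, a small subunit protein, rose at E3.5 + 7 h. It had 46.7 and 36.2 RPKM in control and 78.02 and 73.2 RPKM with p38-MAPKi (log2 fold change of 0.88, adjusted p of 0.0494 in limma), without overlap. Its adjusted p was 0.347 without control replicate 2 and ranged from 0.0042 to 0.347 over the alternatives. The median log2 fold change of the 5 was 0.33, 0.57, and −0.10 at 4, 7, and 10 h, and 4 had a higher mean at 7 h. For Dap3, Chchd1, and Gadd45gip1 both p38-MAPKi libraries lay above both controls at 7 h, and none of these passed. Ptcd3 was the exception, with 11.3 and 11.8 RPKM in control and 7.98 and 9.32 RPKM with p38-MAPKi.

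Genes that assemble or serve this ribosome were taken as separate lists. None of the 28 assembly factors passed at 4, 7, or 10 h, their median log2 fold changes were 0.18, 0.10, and 0.01, and their values at 7 h ran from −0.83 to 0.64. None of the 16 mitochondrial translation factors passed (medians of 0.14, 0.03, and 0.05), nor did any of the 11 genes of mitochondrial transcription and RNA processing (−0.03, −0.26, and −0.10), which ran from −0.78 to 0.79 at 7 h. Over all genes tested, the medians were 0.07, −0.14, and −0.02, and 0.909%, 2.13%, and 0.803% passed. At such shares, lists of this size can hold no gene that passes. Differences between these lists and the members were not tested. Of 8 tested transcription factors of nuclear genes for mitochondria, Myc fell at 4 h. It had 5.23 and 7.72 RPKM in control and 2.45 and 2.83 RPKM with p38-MAPKi (log2 fold change of −1.27, adjusted p of 0.0011 in limma), without overlap. Without control replicate 1 its adjusted p was 0.0613, without control replicate 2 it was 0.546, and over the alternatives it ranged from 0.000423 to 0.559. At 7 h Myc had 5.16 and 5.201 RPKM in control and 1.80 and 2.41 RPKM with p38-MAPKi, also without overlap (log2 fold change of −1.32, adjusted p of 0.0503 in limma), and at 10 h its adjusted p was 0.185. The median of the 8 was −0.04, −0.26, and −0.04. The others, among them Nrf1, Gabpa, and Yy1, did not pass at any time point, and Ppargc1a was without a read in any library. All 13 mitochondrial mRNAs were listed without a read in all 12 libraries, so the transcripts that this ribosome translates could not be followed, and mitochondrial rRNA was not analysed here.

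The lineage markers gave no call at these time points. The median log2 fold change at 7 h was −0.25 for the 7 trophectoderm markers, −0.19 for the 6 epiblast markers, and −0.46 for the 5 tested primitive endoderm markers. For all genes tested it was −0.14. None of the markers passed at 4, 7, or 10 h, when 0.909%, 2.13%, and 0.803% of all genes did. The part of lineage proportions in the members' values was not tested.

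Values of a pair of related machineries were set beside these. The summed level of 76 cytosolic ribosomal protein genes with p38-MAPKi was 1.22, 1.67, and 0.93 of that in control at 4, 7, and 10 h, and that of 36 complex I subunit genes was 1.18, 1.62, and 0.974, with overlapping libraries at 4 and 10 h. The members' ratios were 1.2, 1.34, and 0.915. The medians at 7 h were 0.69 for cytosolic ribosomal proteins, 0.72 for complex I, and 0.35 for the members. At 7 h, 9 of the 76 cytosolic ribosomal protein genes and 4 of the 36 complex I genes passed, all higher, against 0.932% of all genes. These differences between groups of genes were not tested.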

How the data were processed

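Poly(A) RNA of 12 blastocyst pools was sequenced by the study from directional libraries. Per the labels and the study's methods, the authors trimmed reads with Trim Galore 0.4.1, mapped them to GRCm38 with HISAT2 2.0.5, counted them in SeqMonk, and deposited log2 RPKM for 34245 genes. The strand option and the handling of reads with several matches are not given in the sources used here. A gene without a read was deposited at the value of 0.9 reads, which gave the total reads of each library (11242313 to 24457312). Whole reads, within 0.02, were recovered for 34244 genes and all 78 members, for 71 members with GENCODE M21 exon lengths and otherwise with the shortest length that gave whole reads. The number of value columns without a sample was 0.

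The deposited log2 values of the libraries in a comparison were fitted by limma 3.58.1 (lmFit, eBayes with trend) under R 4.3.3, after genes reaching 1 RPKM in fewer than 2 of those libraries had been dropped. P-values were adjusted by Benjamini-Hochberg over all genes tested, with a threshold of 0.05, and no pseudocount was added. For p38-MAPKi at 4 h and for control from 4 to 7 h limma gave all genes the spread of the trend. The fit was tested on simulated data. Plots were drawn with matplotlib 3.10.9, and tables were made in Python 3.11.15 (pandas 2.3.3, numpy 2.4.6, scipy 1.17.1). Voom used the recovered reads. Replicates are separate pools, and the labels do not say which pools share a day.

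The members and lists were chosen with earlier results of these data known. Named members are those that passed a test, the 3 largest and 3 lowest log2 fold changes at each time point, the 4 highest and 4 lowest levels in control, members with fixed roles, and the member with the largest SD in each group. Mitochondrial ribosomal subunits without an Mrp symbol are named, and so are genes that passed from the lists other than the cytosolic ribosomal protein and complex I genes, which are given by counts. Other genes, such as Mrpl46, Mrps11, Mrpl32, and Mrps27, were chosen after their values were seen. Cytosolic ribosomal protein and complex I genes were taken by symbol. Alternatives to these settings were voom, a single fit of 12 libraries, a replicate block, dropping the trend or the filter, a stricter filter of 10 RPKM, a pseudocount of 1, quantile normalization, median centring, removal of the length trend by loess (span 0.5, degree 1), and leaving out each library. Direction counts under these were added after seeing the data.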

Additional observations from a re-analysis of the deposited data

Results flagged for a closer look

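The summed level of the members with p38-MAPKi was higher than control in both libraries at E3.5 + 4 h (1.2 of control) and at E3.5 + 7 h (1.34), and lower in both libraries at E3.5 + 10 h (0.915). Mrpl genes alone gave 1.2, 1.35, and 0.916, and Mrps genes alone 1.21, 1.31, and 0.911. At each time point every treated library lay on one side of every control library, and the side was opposite at 10 h. At 4 h the p38-MAPKi sums were 2839 and 3557 RPKM, against 2517 and 2792 RPKM in control. The size of that difference thus rested mostly on p38-MAPKi replicate 2. The difference between the time points was not tested for these sums.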

How the results depend on the processing

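At E3.5 + 7 h, 1 member was called with the chosen settings. The count was 0 without the trend, with median centring, with quantile normalization, with no filter, and with the length trend removed, and it was 15 with at least 10 RPKM, 3 with a pseudocount of 1, 23 with one fit of 12 libraries, and 16 with voom (21.1%, 3.85%, 28.2%, and 20.5% of members tested as higher, against 9.01%, 2.04%, 7.92%, and 4.93% of all genes, and 1 of the 23 as lower). Leaving out a library gave 0 to 15. Of all genes, 102 of 233 calls were higher, against 7 of 12 with quantile normalization. At E3.5 + 10 h, 2 members were called with at least 10 RPKM and 1 with voom (all lower, with 2.04% and 2.76% of all genes lower), and at E3.5 + 4 h leaving out a library gave 0 to 2. Between the effects at 10 and 7 h, 15 were called with at least 10 RPKM and 16 with voom (all lower, with 5.67% and 2.86% of all genes lower), and leaving out a library gave 0 to 28. Leaving out a library gave 0 to 1 between control at 10 and 4 h, with 10.9% of all genes called in the fit that gave 1. The cause of these differences was not tested.

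With the replicate number as a replicate block, 20 members were called at 7 h (all higher, with 7.56% of all genes higher), 3 at 10 h (all lower, with 2.11% of all genes lower), and 1 between control at 10 and 4 h (with 4.95% of all genes), and the other counts of members called were as without it. The numbers are not known to pair pools: the correlation of same-numbered deviations across genes was −0.01, 0.16, and 0.17 at 4, 7, and 10 h.

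The members' median log2 fold change at 4 h was 0.12 with the length trend removed and 0.10 to 0.42 when a library was left out. At 7 h it was 0.55 with median centring and 0.19 to 0.49, and at 10 h −0.17 to −0.09, when a library was left out. None of these 3 medians changed sign in any alternative. Leaving out 1 library leaves a group with 1 pool, which is then assumed to vary like the others. Groups of 2 pools limit what single members can show.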

Other observations

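Mrps6, Mrps9, and Mrpl9 were the 3 members whose p38-MAPKi libraries lay above both control libraries at each of the 3 time points. The share was 3.85% of members and 3.61% of the 10466 genes tested at all 3 time points. They were chosen after their values were seen, and none passed with the chosen settings. Mrps6 overlaps Slc5a3 on the same strand. Mrps9 had 9.04 and 9.80 RPKM in control and 10.6 and 13.8 RPKM with p38-MAPKi at 4 h, and 12.3 and 9.54 against 13.1 and 13.4 RPKM at 7 h. At 10 h its values were 9.48 and 9.46 RPKM in control and 9.75 and 11.2 RPKM with p38-MAPKi. More often, members were above control at 7 h and below it at 10 h without overlap, as was the case for 30 of 78 (38.5%) and for 6.21% of these genes. Mrpl3 and Mrpl44 were below control at both 7 and 10 h (2.56% of members and 13.7% of these genes). These shares were not tested.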
